A study of Mus musculus with 4 samples.

Results

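Transcript levels of 36 genes of histone lysine methylation were compared between WT and Npac KO mouse embryonic stem cells. The genes are writers of methylation at H3K4, H3K9, H3K79 and H4K20, erasers at H3K4, H3K9 and H3K27, and core subunits of the H3K4 complexes, together with 4 related enzymes whose target is another residue or is debated. They were chosen by name and target residue out of the 56748 genes listed in the deposited table, and all 36 were found there. Npac, whose gene symbol is Glyr1, is a nuclear protein that binds nucleosomes and gene bodies carrying H3K36 methylation.

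Methyl groups on histone lysines are placed by methyltransferases, most of which carry a SET domain, and removed by amine oxidases of the Kdm1 family or by JmjC oxygenases. H3K4 methylation marks promoters and enhancers and is laid down by Kmt2 and Setd1 enzymes that work only in complexes built on the core subunits Wdr5, Rbbp5, Ash2l and Dpy30. H3K9 methylation marks silent chromatin, H3K27 methylation marks Polycomb targets, H3K79 methylation lies in transcribed genes, and H4K20 methylation serves chromosome compaction and DNA repair. In embryonic stem cells these marks set which lineage genes stay silent and which stay ready for use.

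The cells are of E14, a mouse embryonic stem cell line grown with leukemia inhibitory factor and without feeder cells. RNA-seq gave 4 libraries, of which 2 came from WT cells (WT1 and WT2) and 2 from Npac KO cells made with CRISPR/Cas9 (KO1 and KO2). KO1 and KO2 are separate knockout lines with 1 library each, and the labels name no treatment in either genotype. Nothing in the labels says that WT1 and WT2 came from separate cultures, so p-values measure the spread between these libraries, which may be technical. Total counts were 15850805, 16568283, 16233971 and 16965120 in WT1, WT2, KO1 and KO2, respectively. Counts are given as reads or as CPM (reads scaled to a fixed library size) after TMM scaling, which corrects for differences in library composition. Every test is edgeR's quasi-likelihood test over the 18157 genes with enough reads, adjusted by the Benjamini-Hochberg method. A gene was called up- or down-regulated at an adjusted p below 0.05 and a fold change over 1.5. Calls are from this fit with all 4 libraries unless another setting is named. With 1 library left out, the lone library of that genotype is assumed to vary like the other genotype's pair. Calls and p-values of such fits thus do not measure the spread within that genotype.

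The targeted gene was low in both KO libraries. Glyr1 reached 259, 178, 47.9 and 51.3 CPM in WT1, WT2, KO1 and KO2, respectively, for a log2 fold change of -2.14 (SE 0.23, adjusted p = 0.00174). The genotypes also differed in other ways. Hprt, which encodes a purine salvage enzyme, had 5 reads in WT1 and 6 in WT2 but 2932 in KO1 and 2710 in KO2. Relative to the WT mean, genes of chromosome 8 were shifted by a median of 0.52 (KO1) and 0.53 (KO2) on the log2 scale, and those of chromosome 11 by 0.51 and 0.49. On the other autosomes the medians lay between -0.20 and -0.0031. The loss of Npac and any other difference between the WT and KO cells that Hprt and these chromosomes mark cannot be told apart here.

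The labelled cell type was checked with marker genes. All 13 embryonic stem cell markers were detected, and their summed level was 8957, 6945, 6300 and 5892 CPM in WT1, WT2, KO1 and KO2, respectively, with Dppa5a the most abundant. Of the 13, Zfp42, Klf4 and Tfcp2l1 were down-regulated, at log2 fold changes of -2.64, -1.32 and -1.24, and Klf2 was up-regulated at 0.97. Apart from Tfap2c, described below, markers of other cell types were low, with Col1a1 up-regulated and Sox7 and Sox1 down-regulated. The 8 fibroblast markers summed to 35.8, 59.1, 45.7 and 50.7 CPM in WT1, WT2, KO1 and KO2, respectively, with Thy1 the most abundant and Col3a1, S100a4 and Dcn at 0 in every library. The 7 primitive endoderm markers, led over all libraries by Gata4, summed to 31.8, 32.5, 20.4 and 27.7 CPM in the same order. Of these, Sox7 was at 17.9 and 9.27 CPM in WT1 and WT2 and at 0.257 and 0.924 in KO1 and KO2. Gata4, Gata6 and Pdgfra were higher and Dab2 was lower in both KO libraries, and none of them was called. The 5 neuroectoderm markers, led by Tubb3, summed to 91.6, 79.8, 85.0 and 99.4 CPM, and the 5 mesoderm markers, led by Kdr, to 3.08, 6.52, 6.24 and 9.76 CPM. Only the 5 trophectoderm markers were higher in both KO libraries by more than a few CPM, at 53.0, 38.7, 163 and 144 CPM, and most of that was Tfap2c, which was up-regulated. The part of these shifts in the results below was not tested. In bulk RNA, fewer cells with a transcript and less of it per cell cannot be told apart.

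Of the 36 genes, 35 had enough reads to be tested. In Npac KO cells 2 of them were up-regulated, namely Ash2l, a core subunit of the H3K4 complexes, and Ehmt2, the H3K9 methyltransferase G9a. Down-regulation passed both thresholds for 1 gene, Rbbp5, another core subunit of the H3K4 complexes. The calls made up 8.57% of the 35 genes, against 21.7% of all genes tested, with 11.0% of all genes up-regulated and 10.7% down-regulated. The log2 fold changes ran from -0.87 for Kmt2e to 0.76 for Dot1l, with a median of -0.06. The median size of the change was 0.24 on the log2 scale, against 0.55 over all genes tested. A change beyond 1.5-fold in either direction, with no test, was seen in 8 of the 35 genes and in 47.2% of all genes. The KO values both exceeded the WT values for 5 genes, against 33.2% of all genes, and both fell short of them for 6, against 32.5%. The groups were thus apart in 11 of the 35 genes, against 65.7% of all genes, and overlapped in the remaining 24. At an unadjusted p below 0.05 with the same fold change, 5 of the 35 passed (Rbbp5, Ash2l, Ehmt2, Dot1l and Kdm4b), against 33.9% of all genes. DESeq2 called Dot1l in addition to the 3 genes. Over all 32685 genes for which it gave a p-value, it called 2032 up-regulated and 2097 down-regulated.

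**Figure D1:**
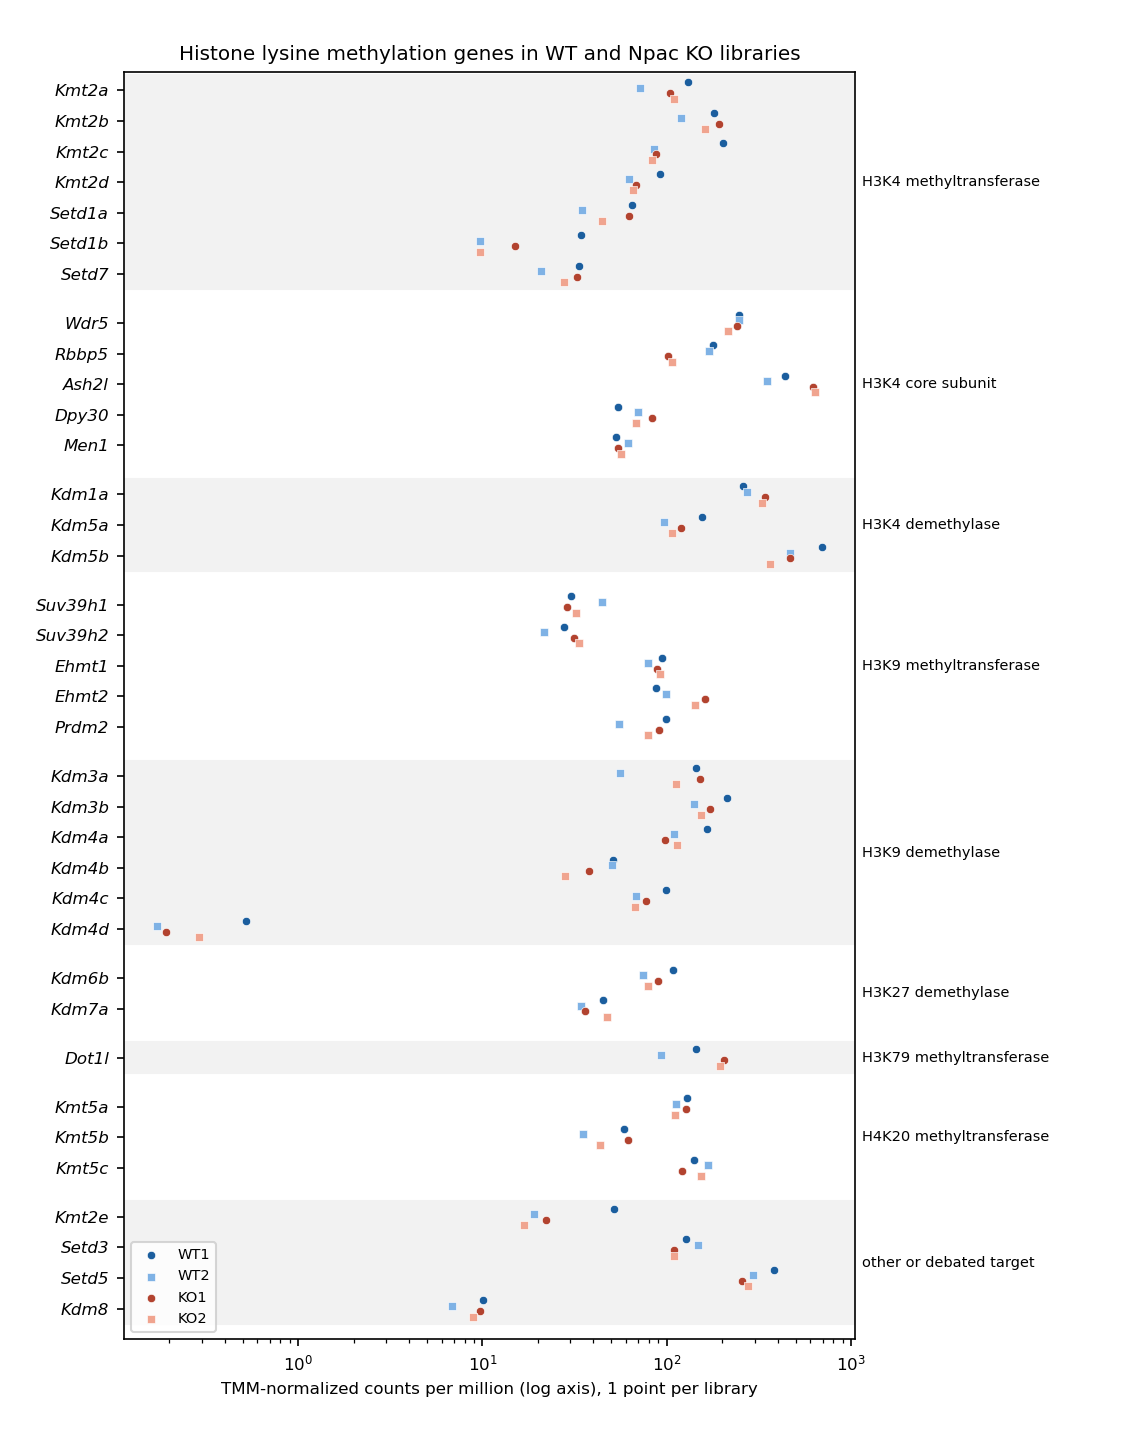
TMM-normalized CPM (log axis) of each of the 36 genes, with 1 point for each of WT1, WT2, KO1 and KO2 and the genes grouped by target residue. Most genes show the WT and KO points interleaved, and WT1 (dark blue circle) often lies to the right of WT2 (light blue square).

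The enzymes that place H3K4 methylation gave no call. None of the 7 H3K4 methyltransferases passed the thresholds with edgeR or with DESeq2, against 21.7% of all genes by edgeR. None had an unadjusted p below 0.05, against 6809 of all 18157 genes. With no filter on low counts, Setd1b and Kmt2c were called down-regulated. The same happened without WT2, and without WT1 Setd1a was called up-regulated at 0.61, where without WT2 it was at -0.28. The median log2 fold change of the 7 was 0.08. The largest change among them was that of Setd1b, a catalytic subunit of the broad promoter H3K4 trimethylation complexes, with 523, 169, 232 and 168 reads in WT1, WT2, KO1 and KO2, respectively. WT1 alone was high, and WT2 lay at the level of the KO libraries. The log2 fold change was -0.83 (SE 0.54, adjusted p = 0.296), and it became 0.32 without WT1 and -1.48 without WT2. Kmt2c, which primes enhancers with H3K4 monomethylation, had the same shape, at 202, 84.7, 87.2 and 82.7 CPM in WT1, WT2, KO1 and KO2, respectively. Its log2 fold change of -0.75 (adjusted p = 0.168) became -0.023 without WT1 and -1.25 without WT2.

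The other H3K4 methyltransferases differed less between genotypes than between WT1 and WT2. Kmt2a, the founding member of the MLL family, had a mean of 101 ± 41.2 CPM in WT and 107 ± 4.59 in KO (SD, n = 2 each). Kmt2b, which serves CpG-rich promoters, had 150 ± 43.3 and 177 ± 21.4 CPM, and Kmt2d, the main enhancer enzyme, 77.0 ± 21.1 and 66.9 ± 1.38 CPM. Setd1a, the enzyme paired with Setd1b, had 49.8 ± 21.6 and 53.6 ± 12.7 CPM. Setd7, which monomethylates H3K4 and several non-histone proteins, had 27.1 ± 8.96 and 30.2 ± 3.50 CPM. WT1 was above WT2 for all 7 of the H3K4 methyltransferases, by a median of 0.86 on the log2 scale.

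The 5 genes listed as H3K4 core subunits, with Men1 counted among them, held 2 of the 3 calls, in opposite directions. That is 40% of the 5 against 21.7% of all genes. Rbbp5 (ENSMUSG00000026439, chromosome 1, 132405103 to 132433397 in the deposited table) bridges Ash2l to the catalytic subunit. It had 2726, 2962, 1575 and 1848 reads in WT1, WT2, KO1 and KO2, respectively. Both KO libraries were low and the groups did not overlap. The mean fell from 174 ± 6.34 CPM in WT to 104 ± 3.85 in KO (SD, n = 2 each), a log2 fold change of -0.74 in edgeR's fit (SE 0.17, 95% interval -1.14 to -0.34, adjusted p = 0.0216). The gap between replicates was 0.07 on the log2 scale in WT and -0.08 in KO. With 1 KO library left out the change stayed similar in size but the adjusted p rose, to 0.229 without KO1 and 0.192 without KO2. A near-identical copy of Rbbp5 held 5 reads over all libraries.

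Ash2l (ENSMUSG00000031575, chromosome 8, 26306024 to 26337722 in the deposited table) completes the core and stimulates the catalytic subunit. It had 6650, 6101, 9631 and 11026 reads in WT1, WT2, KO1 and KO2, respectively. Both KO libraries were high and the groups did not overlap. The mean rose from 392 ± 61.0 to 628 ± 12.3 CPM (SD, n = 2 each), a log2 fold change of 0.68 in edgeR's fit (SE 0.19, 95% interval 0.23 to 1.13, adjusted p = 0.0433). Ash2l lies on chromosome 8, where 26.1% of all tested genes were up-regulated. With the median change of each chromosome removed, its log2 fold change was 0.16 with an adjusted p of 0.606. The call was also lost without WT2 (log2 fold change 0.53, under the fold threshold) and without KO1 or KO2 (adjusted p = 0.2 and 0.216).

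The upstream sequence of Rbbp5 is shown because it is the core subunit that was called both with and without the chromosome medians removed. It covers the 250 bases before the gene start in RefSeq (GRCm38.p6, chr1:132477117-132477366, plus strand) and holds 10 CG pairs.

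Rbbp5 upstream: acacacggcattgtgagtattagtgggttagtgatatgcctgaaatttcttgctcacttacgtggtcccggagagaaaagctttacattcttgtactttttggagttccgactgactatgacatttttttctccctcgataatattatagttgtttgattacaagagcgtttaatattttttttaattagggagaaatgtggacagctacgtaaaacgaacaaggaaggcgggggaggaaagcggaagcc

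Both strands were searched for the E-box CACGTG, the SP1 box GGGCGG, the ETS core CCGGAAG, the TATA motif TATAAA, the CCAAT motif and the NRF1 motif. None of these letters occurred in the Rbbp5 window, so it has no capitals. Ash2l has no entry in the RefSeq table used.

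The other core subunits gave no call. Per length, as mean FPKM (reads scaled by gene length and library size) over all libraries, Wdr5 (65.2), Dpy30 (59.5) and Ash2l (56.4) were among the 4 genes with the highest levels, the other being Kdm1a (57.3). The catalytic H3K4 enzymes ran from 1.41 FPKM for Setd1b to 16.9 for Kmt2b. Wdr5, which holds the catalytic subunit and reads arginine on the H3 tail, had a mean FPKM of 67.9 in WT, the highest of the 36 genes, and 62.5 in KO, below Ash2l (69.3), Dpy30 (65.4) and Kdm1a (63.9). It had 3773, 4279, 3713 and 3733 reads in WT1, WT2, KO1 and KO2, respectively. After scaling the KO values were just below the WT values, with a log2 fold change of -0.11 (SE 0.17, adjusted p = 0.675). With each library left out that of Wdr5 ran from -0.20 to -0.027. Dpy30, a small dimer that binds Ash2l, had 61.9 ± 10.5 CPM in WT and 75.7 ± 10.7 in KO. Men1, encoding menin, which tethers Kmt2a and Kmt2b to chromatin, had 57.5 ± 6.11 and 55.1 ± 1.46 CPM.

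**Figure D2:**
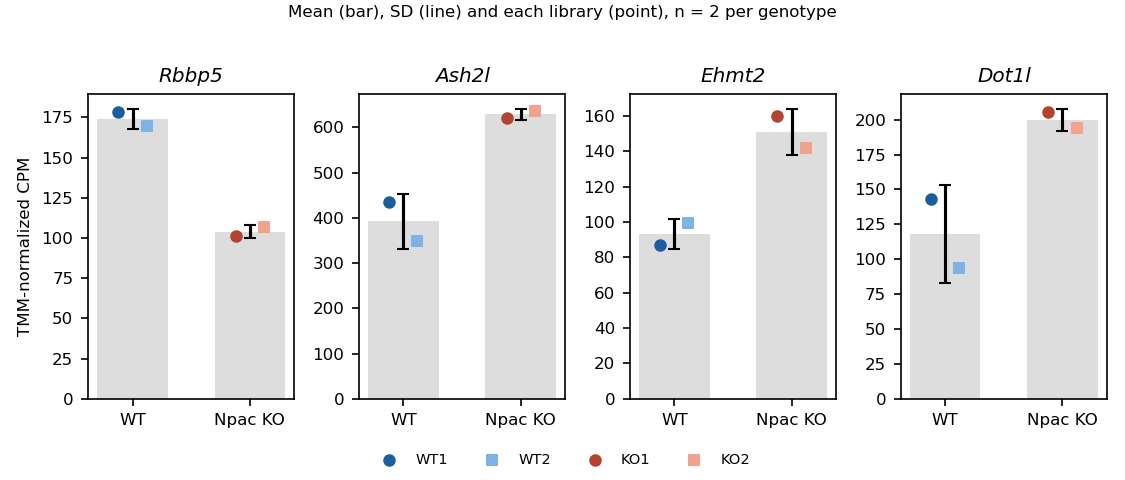
TMM-normalized CPM of Rbbp5, Ash2l, Ehmt2 and Dot1l in WT and Npac KO cells, with the mean as a bar, the SD as a line and each library as a point. The WT and KO points are apart in all 4 genes, and the WT points of Dot1l are spread from 93.4 to 143 CPM.

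Of the 3 H3K4 demethylases none was called, against 21.7% of all genes. Kdm5b, a JmjC enzyme that removes H3K4 trimethylation, had 10569, 8120, 7203 and 6253 reads in WT1, WT2, KO1 and KO2, respectively. WT1 was high, KO2 was low, and WT2 and KO1 lay next to each other at 465 and 463 CPM. Its log2 fold change was -0.49 (SE 0.25, adjusted p = 0.189) with all libraries. The value was -0.75 without WT2, -0.20 without WT1 and -0.30 without KO2. Kdm1a, the LSD1 amine oxidase that removes H3K4 mono- and dimethylation, was at 259 and 270 CPM in WT1 and WT2 and at 340 and 329 CPM in KO1 and KO2. The KO values were the higher ones in both lines, with a log2 fold change of 0.34 (SE 0.17, 95% interval -0.06 to 0.74, adjusted p = 0.197). Kdm5a, a relative of Kdm5b, had 126 ± 41.8 CPM in WT and 113 ± 9.47 in KO.

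Among the 5 H3K9 methyltransferases only Ehmt2 was called, which is 20% against 21.7% of all genes. Ehmt2 (ENSMUSG00000013787, chromosome 17, 35117445 to 35133028 in the deposited table) encodes G9a, which places H3K9 mono- and dimethylation in euchromatin as a heterodimer with Ehmt1. It had 1332, 1736, 2490 and 2456 reads in WT1, WT2, KO1 and KO2, respectively. Both KO libraries were high and the groups did not overlap. The mean rose from 93.3 ± 8.59 to 151 ± 12.9 CPM (SD, n = 2 each), a log2 fold change of 0.70 in edgeR's fit (SE 0.18, 95% interval 0.27 to 1.12, adjusted p = 0.0324). The call was lost without WT1 (log2 fold change 0.58, just under the fold threshold), without KO1 (adjusted p = 0.318) and without KO2 (adjusted p = 0.153). The median change of chromosome 17 was -0.09 in KO1 and -0.12 in KO2.

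Both upstream windows that RefSeq gives for Ehmt2 are shown, since it was the called gene among the catalytic enzymes (GRCm38.p6, plus strand, chr17:34898224-34898473 and chr17:34898720-34898969). Capitals mark matches to the 6 motifs above, here the E-box and the SP1 box in either direction.

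Ehmt2 upstream, first start: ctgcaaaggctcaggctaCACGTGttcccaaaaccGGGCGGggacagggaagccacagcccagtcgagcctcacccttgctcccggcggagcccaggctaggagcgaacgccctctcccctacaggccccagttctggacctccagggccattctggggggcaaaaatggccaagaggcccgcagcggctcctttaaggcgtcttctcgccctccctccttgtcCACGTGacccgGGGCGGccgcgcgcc
Ehmt2 upstream, second start: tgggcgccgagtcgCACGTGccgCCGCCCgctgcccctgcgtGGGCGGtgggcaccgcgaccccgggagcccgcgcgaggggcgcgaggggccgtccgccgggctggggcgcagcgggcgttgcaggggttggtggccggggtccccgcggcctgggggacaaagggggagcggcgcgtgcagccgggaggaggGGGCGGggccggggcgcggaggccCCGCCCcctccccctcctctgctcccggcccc

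The first window held 18 CG pairs and 2 E-boxes, and the second held 36 CG pairs and 1 E-box. An E-box occurred in 6.02% and an SP1 box in 32.7% of all RefSeq windows of this length. The matches are a description and name no factor.

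Ehmt1, the partner of Ehmt2, gave no call. Its level was 94.0, 79.4, 88.5 and 91.7 CPM in WT1, WT2, KO1 and KO2, respectively. The groups overlapped, and its log2 fold change was 0.06 (SE 0.18, 95% interval -0.36 to 0.48, adjusted p = 0.850). Whether the changes of Ehmt1 and Ehmt2 differ was not tested. The H3K9 trimethylases of pericentromeric heterochromatin gave values of opposite sign, neither past the test. Suv39h1 had 37.3 ± 9.85 CPM in WT and 30.4 ± 2.60 in KO, and Suv39h2 had 24.6 ± 4.24 and 32.3 ± 1.29 CPM, where the groups did not overlap. Prdm2, which methylates H3K9 and carries a PR domain, had 76.9 ± 31.3 and 84.8 ± 7.61 CPM. It was called up-regulated without WT1, at a log2 fold change of 0.61, and was at -0.23 without WT2.

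The 6 H3K9 demethylases included the only untested gene. Kdm4d, expressed mainly in the testis, had 8, 3, 3 and 5 reads in WT1, WT2, KO1 and KO2, respectively, and the lowest level of the 36 genes, at 0.121 FPKM in WT and 0.0832 in KO. A near-identical copy, Kdm4dl, held 22, 88, 10 and 53 reads in the same order, so reads could be split between them. Of the 5 tested, none was called, against 21.7% of all genes. Kdm4b, which removes H3K9 trimethylation, had 780, 886, 588 and 484 reads in WT1, WT2, KO1 and KO2, respectively. Both KO libraries were low and the groups did not overlap. The mean was 50.9 ± 0.256 CPM in WT and 32.9 ± 6.98 in KO, with a log2 fold change of -0.63 (SE 0.22, 95% interval -1.13 to -0.13). The adjusted p of 0.073 missed the threshold in edgeR's fit. With a replicate block Kdm4b was called down-regulated, at -0.65 (adjusted p = 0.0255). Kdm4b was at -0.65 without WT1 and at -0.64 without WT2. With 1 KO library left out it was not called, at -0.87 (adjusted p = 0.176) without KO1 and -0.41 (adjusted p = 0.559) without KO2.

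Kdm3a, which removes H3K9 mono- and dimethylation, showed a single low library. It was at 144, 55.8, 152 and 113 CPM in WT1, WT2, KO1 and KO2, respectively. The log2 fold change of 0.41 (SE 0.40, adjusted p = 0.497) became 1.22 without WT1, where it was called, and -0.13 without WT2. Its relative Kdm3b had 176 ± 51.6 CPM in WT and 162 ± 13.6 in KO. Kdm4a and Kdm4c, which act on H3K9 and H3K36 as Kdm4b does, had 137 ± 39.8 and 83.2 ± 21.6 CPM in WT and 106 ± 11.2 and 72.0 ± 6.97 in KO. The log2 fold change of Kdm4a was -0.37 (adjusted p = 0.281) with all libraries, -0.071 without WT1 and -0.65 without WT2.

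Neither of the H3K27 demethylases was called with edgeR or DESeq2, against 21.7% of all genes by edgeR. Neither had an unadjusted p below 0.05, against 6809 of all 18157 genes. Kdm6b, the JMJD3 enzyme that removes H3K27 trimethylation, had 1643, 1297, 1388 and 1371 reads in WT1, WT2, KO1 and KO2, respectively. The KO values lay between the WT values, with a log2 fold change of -0.11 (SE 0.22, adjusted p = 0.756). Kdm7a, which removes dimethylation from H3K27 and H3K9, had 39.7 ± 7.70 CPM in WT and 41.6 ± 7.99 in KO. Kdm6b lies on chromosome 11, where the median change was positive, and with chromosome medians removed it was at -0.61 (adjusted p = 0.0923).

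Dot1l, the only enzyme known to methylate H3K79, had the highest log2 fold change of the 35 tested genes and missed the threshold narrowly. It had 2185, 1632, 3192 and 3359 reads in WT1, WT2, KO1 and KO2, respectively. Both KO libraries were high and the groups did not overlap. The mean was 118 ± 35.1 CPM in WT and 200 ± 7.98 in KO (SD, n = 2 each), a log2 fold change of 0.76 in edgeR's fit (SE 0.23, 95% interval 0.22 to 1.29, adjusted p = 0.0529). Dot1l was called with DESeq2 (adjusted p = 0.0274), with upper-quartile scaling (0.0375), with no filter on low counts (0.00469), with at least 10 counts in every library (0.0470), with a replicate block (0.00726) and with chromosome medians removed (0.0434). It was not called with RLE scaling (0.0534), on log2(FPKM + 0.1) (0.0623) or log2(FPKM + 1) (0.0631) with limma, or without KO1 (0.218) or KO2 (0.166). It was also called without WT1, the WT library in which it was higher (log2 fold change 1.07), and was at 0.48 without WT2.

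None of the 3 H4K20 methyltransferases was called with edgeR or DESeq2, against 21.7% of all genes by edgeR. None had an unadjusted p below 0.05, against 6809 of all 18157 genes, and their median log2 fold change was -0.01. Kmt5a, the monomethylase that acts around mitosis, had 120 ± 11.5 CPM in WT and 119 ± 11.6 in KO, with a log2 fold change of -0.01 (SE 0.18, 95% interval -0.44 to 0.41). Kmt5b had 47.0 ± 16.7 and 52.5 ± 12.6 CPM. Kmt5c, which with Kmt5b carries H4K20 to the di- and trimethylated states, had 2132, 2918, 1871 and 2637 reads in WT1, WT2, KO1 and KO2, respectively. The groups overlapped, with a log2 fold change of -0.17 (SE 0.20, adjusted p = 0.578). With each library left out that of Kmt5c ran from -0.33 to -0.019.

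Of the 4 related enzymes, none was called, against 21.7% of all genes. Kmt2e, a member of the Kmt2 family with a PHD finger that reads H3K4 methylation and no established methyltransferase activity, had 792, 332, 344 and 289 reads in WT1, WT2, KO1 and KO2, respectively. Again WT1 alone was high. The log2 fold change of -0.87 (SE 0.43, adjusted p = 0.185) became 0.0029 without WT1 and -1.42 without WT2, where Kmt2e was called. It was also called with no filter on low counts and with a replicate block. Setd3, the actin histidine methyltransferase, was at 127 and 147 CPM in WT1 and WT2 and at 110 and 109 CPM in KO1 and KO2. Setd5, a chromatin regulator of debated activity, was at 383 and 295 CPM in WT and at 256 and 276 CPM in KO. For both, the KO libraries lay below the WT libraries, at log2 fold changes of -0.33 (adjusted p = 0.216) and -0.35 (adjusted p = 0.240). With each library left out that of Setd5 ran from -0.53 to -0.18. Kdm8, a JmjC oxygenase, had 8.45 ± 2.31 CPM in WT and 9.31 ± 0.578 in KO.

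**Figure D3:**
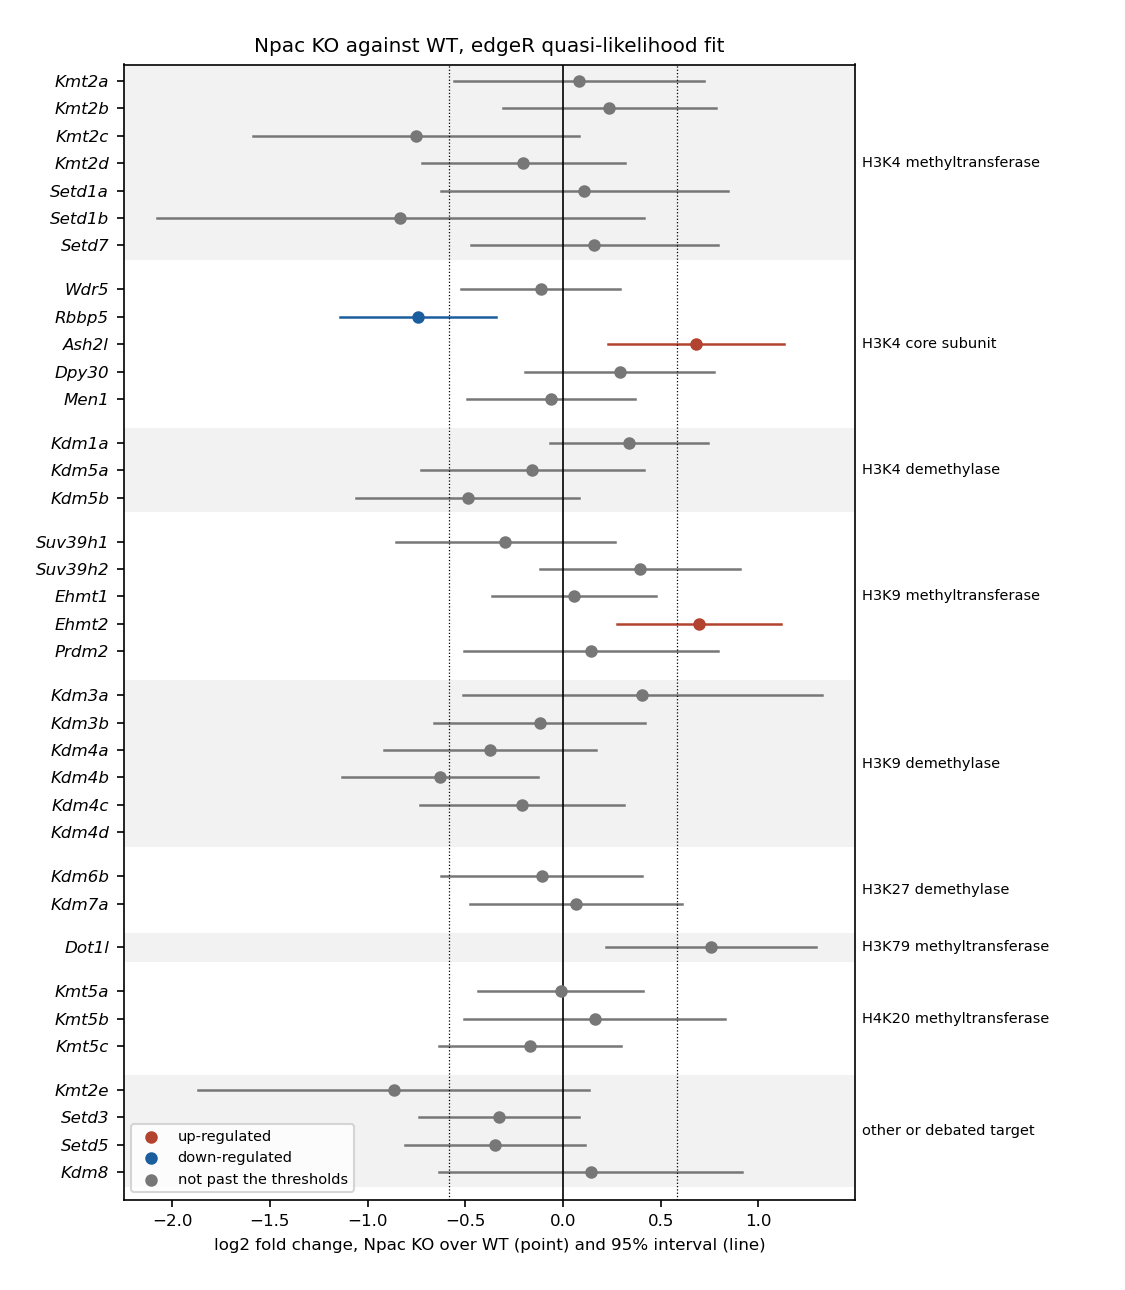
Log2 fold change of Npac KO over WT for the 35 tested genes (point) with its 95% interval (line), grouped by target residue, with dotted lines at a 1.5-fold change. Rbbp5 is the only down-regulated and Ash2l and Ehmt2 are the only up-regulated genes, and the widest intervals belong to Setd1b and Kmt2e.

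By enzyme class, 1 of 16 methyltransferases with an assigned residue was up-regulated and none was down-regulated, against 11.0% and 10.7% of all genes, with a median log2 fold change of 0.10. With DESeq2 Dot1l was called as well. Of 10 tested demethylases with an assigned residue none was called by edgeR or DESeq2 with all 4 libraries and no block. By edgeR 21.7% of all genes were called. Of the 10, 1 (Kdm4b) had an unadjusted p below 0.05, against 6809 of all 18157 genes, and the median was -0.14. Kdm1a, Kdm5a, Suv39h1, Suv39h2 and Kmt2e overlap a gene on the opposite strand that had at least 100 reads in a library, and since the use of strand in counting is not given in the sources used here, such reads cannot be told apart. None of the 3 called genes has such a neighbour.

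For most of these genes the WT libraries were further apart than the KO libraries. WT1 exceeded WT2 in 28 of the 35, against 49.1% of all genes, by a median of 0.54 on the log2 scale against -0.01 over all genes. The gap in WT was larger than the gap in KO for 30 of the 35 and for 11851 of the 18157 genes. The 35 genes are long, with a median gene length in the deposited table of 7420 bases against 3706 for all genes tested. Across the 35 genes the gap between WT1 and WT2 rose with gene length, with a Spearman correlation of 0.68, and across all 18157 genes it was 0.20. These correlations are across genes of the same pair of libraries and describe those libraries only. For genes longer than 8000 bases the median gap was 0.30 over all 2574 genes and 0.61 over the 17 from the histone list. The part of gene length in the gap was not tested, and every KO against WT value of a long gene rests on WT libraries that differ in this way.

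**Figure D4:**
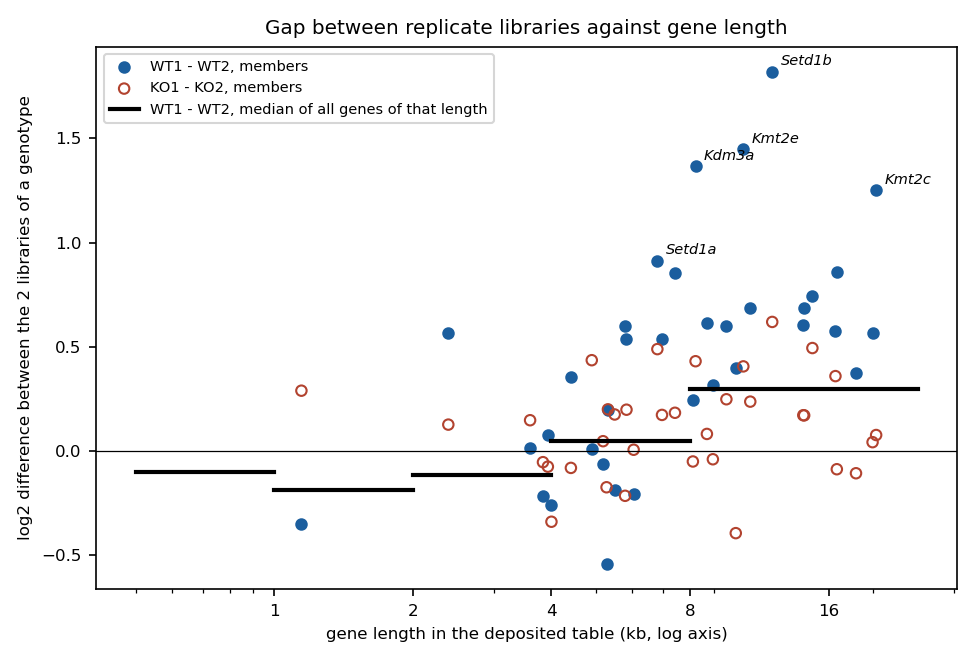
Log2 difference between the libraries of a genotype against gene length (log axis), for the 35 tested genes, with WT1 minus WT2 as filled and KO1 minus KO2 as open points, and the median of WT1 minus WT2 over all genes of each length range as black lines. The filled points climb with length, with Setd1b, Kmt2e, Kdm3a and Kmt2c highest, while the open points stay nearer to 0.

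The 36 genes work with partners and cofactors, and 78 of these were listed by role. Of the 76 tested, 15 were up-regulated and 4 down-regulated, which is 25% against 21.7% of all genes. Of the 15 that rose, 6 (40%) lie on chromosome 8 or 11, as do 32.3% of all 1999 up-regulated genes. With either KO library left out, Ahcy, Atf7ip, Ezh1, Hdac1, Mat2b and Ogdh were still called up-regulated, and the other calls were lost except that of Wdr82 without KO1. Aff1 and Phf8 also lost theirs without WT1. Among 10 tested partners of the H3K4 methyltransferases only Wdr82 was called, which is 10% against 21.7% of all genes. Wdr82, the subunit that brings Setd1a and Setd1b to RNA polymerase, was down-regulated at a log2 fold change of -1.23 (SE 0.24, adjusted p = 0.0128), from 341 and 220 CPM in WT1 and WT2 to 127 and 113 in KO1 and KO2.

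In the CoREST complex, the setting in which Kdm1a demethylates nucleosomes, 1 of 10 listed partners was called, again 10% against 21.7%. Hdac1, the histone deacetylase of the complex, rose by 1.44 on the log2 scale (SE 0.19, adjusted p = 0.00337), and by 0.88 (adjusted p = 0.0160) when reads of its near-identical copies were added. Of 11 H3K9 partners and readers 2 rose and none fell, against 11.0% and 10.7% of all genes, while Setdb2 (log2 fold change -0.83, adjusted p = 0.0535) was called down-regulated with DESeq2, with no filter on low counts, with a replicate block and without WT2. Atf7ip, which stabilises the H3K9 methyltransferase Setdb1, rose by 1.73 (SE 0.22, adjusted p = 0.00309). Wiz, a zinc finger subunit of the Ehmt1 and Ehmt2 complex, rose by 0.91 (SE 0.21, adjusted p = 0.0225).

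Of the 7 partners of Dot1l, 3 rose and 1 fell, which is 57.1% against 21.7% of all genes. Mllt10 (log2 fold change -0.85, adjusted p = 0.0538) was called down-regulated with DESeq2, with no filter on low counts, with a replicate block and without WT2. Mllt3, a reader of acylated lysines that recruits Dot1l, rose by 1.27 on the log2 scale (adjusted p = 0.0352) from a low level of 109 and 244 reads in WT1 and WT2. Its call was lost on log2(FPKM + 0.1) and log2(FPKM + 1) (adjusted p = 0.0765 and 0.0578). Aff3, of the AF4 family of elongation factors, rose by 1.21 (adjusted p = 0.0301) from 5.63 and 6.64 CPM, and was not called on log2(FPKM + 0.1) (adjusted p = 0.0633). Mllt6, on chromosome 11, rose by 0.85 (adjusted p = 0.0251), and by 0.34 (adjusted p = 0.262) with chromosome medians removed. Aff1, the founding member of the AF4 family, fell, with a log2 change of -1.11 (adjusted p = 0.0439), with WT1 at 257 CPM, WT2 at 124, KO1 at 90.7 and KO2 at 85.6.

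Of 11 readers of H4K20 methylation and genes of Kmt5a turnover only Ddb1, the adaptor of the ubiquitin ligase that degrades Kmt5a, was called, with a rise of 0.75 (SE 0.19, adjusted p = 0.0299). That is 9.09% against 21.7% of all genes. Of 9 tested genes that supply methyl groups and cofactors, 3 rose and none fell, against 11.0% and 10.7% of all genes, while Idh2 (log2 fold change -0.71, adjusted p = 0.0581) was called down-regulated with DESeq2, with no filter on low counts, with a replicate block and without WT2. Ahcy, which clears the inhibitory product of methyl transfer, rose by 2.48 (adjusted p = 0.000526), and by 1.18 (adjusted p = 0.00633) with the reads of its near-identical copies added. Mat2b, the regulatory subunit of the S-adenosylmethionine synthetase, and Ogdh, which consumes the cosubstrate of the JmjC enzymes, rose by 1.23 and 1.07. Both lie on chromosome 11, and with chromosome medians removed Ogdh was at 0.57 with an adjusted p of 0.0540.

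Among 18 further enzymes of both families, 5 rose and 2 fell, which is 38.9% against 21.7% of all genes. Ezh1, the H3K27 methyltransferase that can replace Ezh2 in Polycomb complexes, rose by 1.52 (adjusted p = 0.00406), and by 1.02 with chromosome medians removed. It lies on chromosome 11. Riox2 and Jmjd6, JmjC hydroxylases, rose by 1.08 and 0.89, and Jmjd6, on chromosome 11, lost its call with chromosome medians removed (adjusted p = 0.170). Phf8, a JmjC demethylase of H3K9 and H4K20, fell, with a log2 change of -0.79 (adjusted p = 0.0384). Kdm2b and Setd6, which rose, and Smyd3, which fell, were the remaining calls. Setd6, on chromosome 8, and Smyd3 lost theirs with chromosome medians removed, and Kdm2b, Phf8 and Smyd3 lost theirs on both log2(FPKM) scales, as did Aff1.

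Beside Setdb2, Mllt10 and Idh2, other partner and related genes passed both thresholds under some settings. Hcfc1 was called up-regulated and Jmjd1c down-regulated with no filter on low counts and with a replicate block, and Smyd4 up-regulated with the block. With chromosome medians removed Bod1, on chromosome 11, and Cul4a, on chromosome 8, were called down-regulated. Without WT1 the added calls were Aff4, Bod1l, Cbx1, Gse1, Hcfc1, L3mbtl2, Pcna, Rsbn1 and Smyd4, all up-regulated. With all libraries Pcna was at a log2 fold change of 0.55, and at 0.05 when reads of its near-identical copy were added. Without WT2 Smyd2 and Smyd4 were called up-regulated and Cbx5, Hdac2, Jmjd1c, Kdm6a, Ncoa6, Phf2, Rsbn1 and Zfp644 down-regulated. Rsbn1 was thus called in opposite directions as the WT libraries were left out in turn. Over all genes, too, a larger share passed without WT1 or without WT2 than with all libraries.

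**Figure D5:**
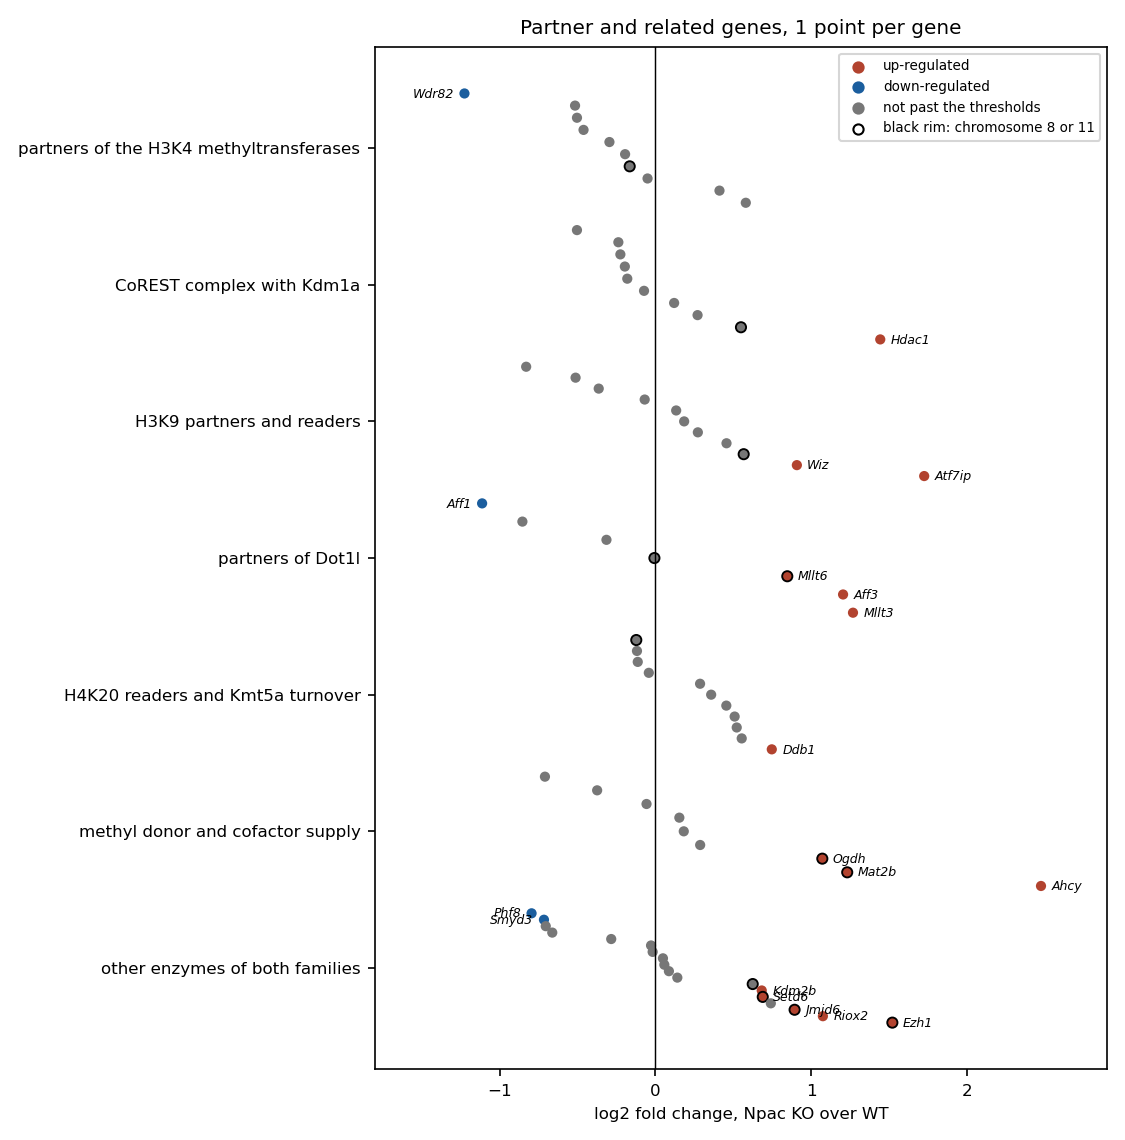
Log2 fold change of Npac KO over WT for the 76 tested partner and related genes, 1 point per gene, by list, with called genes coloured and named and a black rim around genes of chromosome 8 or 11. Ahcy, Atf7ip, Ezh1 and Hdac1 lie furthest to the right, and Wdr82 and Aff1 furthest to the left.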

How the data were processed

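RNA-seq of E14 cells was analysed in 4 libraries, 2 WT and 2 Npac KO. The authors sequenced paired-end reads and deposited raw read counts per gene and FPKM values, which are the counts divided by gene length and by library size. The submitters' processing notes list CASAVA, HISAT2 2.0.5, featureCounts 1.5.0-p3 and the build mm10, with no strand setting. Coordinates are as deposited; 0 of the 36 genes had the same coordinates in GENCODE M21 (GRCm38), so they are not mm10 positions and were not joined to the RefSeq windows, which were matched by symbol for 27 of the 36 genes.

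Tests were run with edgeR 4.0.16 in R 4.3.3 on the counts (TMM, filterByExpr, quasi-likelihood test, genotype as the only term) over all 18157 genes that passed the filter. The study's thresholds were used, an adjusted p (Benjamini-Hochberg) below 0.05 with a fold change over 1.5. The common biological coefficient of variation was 0.235. Standard errors are the log2 fold change divided by the root of the F statistic. Depth differed little, from 15850805 to 16965120 reads. Log2 CPM correlated at 0.961 between WT1 and WT2 and 0.979 between KO1 and KO2 across genes.

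Alternatives were DESeq2 1.42.0, other scalings and filters, a replicate block, limma 3.58.1 on log2(FPKM + 0.1) and log2(FPKM + 1), removal of each chromosome's median change, and each library left out. Summing with near-identical copies, found with blastn 2.17.0+ (at least 90% identity over 200 bases and 60% of the other transcript), was added after seeing the data. The test was tested on simulated data. The 36 genes, the partner and marker lists and the naming rule were chosen with earlier results of these data known. The naming rule took every called gene, the largest change in each residue group, the highest and lowest FPKM, and up to 4 called genes per partner list. An item of the partner lists is not reported here and is left out of their counts, while the fit over all genes is as deposited.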

Additional observations from a re-analysis of the deposited data

How the results depend on the processing

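The calls rest on 2 libraries a genotype. With KO1 or KO2 left out, edgeR called none of the 35 genes, and most calls over all genes were lost as well. The lone KO library is then assumed to vary like the WT pair. With a WT library left out, the lone WT library is assumed to vary like the KO pair. The median gap between replicates over the 35 genes was 0.17 in KO and 0.54 in WT on the log2 scale. The 35 genes gave 0 to 5 up-regulated and 0 to 7 down-regulated calls as each library was left out, where all 4 libraries gave 2 and 1. Over all genes the same settings gave 826 to 3571 up-regulated and 821 to 3384 down-regulated, and over the partner genes 6 to 24 and 0 to 15. With no filter on low counts, down-regulated calls among the 35 numbered 4 (Kmt2c, Kmt2e, Rbbp5 and Setd1b), and over all 32685 genes then tested 2799. At an unadjusted p there were 2 (Kdm4b and Rbbp5), where 33.9% of all genes passed in either direction. Down-regulated partner genes numbered 7 with DESeq2, 8 with no filter, 1 on log2(FPKM + 0.1) and 1 on log2(FPKM + 1). Over all genes these settings gave 2097, 2799, 1735 and 1595 down-regulated calls, respectively. For these differences the cause was not tested. With a replicate block there were 3128 up-regulated and 2994 down-regulated genes, 3 down-regulated of the 35 (Kdm4b, Kmt2e and Rbbp5), Dot1l as a further up-regulated gene, and 8 down-regulated partner genes. The labels do not say whether libraries of the same replicate number share anything else, such as a batch. The gap between WT1 and WT2 correlated with that between KO1 and KO2 at 0.31 across 18157 genes. With all 4 libraries, Ehmt2 and Rbbp5 were called under every scaling, filter and tool tried, and Ash2l under all but the removal of chromosome medians.

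Some signs changed with the setting. Men1 was at 0.0073 with chromosome medians removed and Kmt5a at 0.022 with upper-quartile scaling. With each library left out, the log2 fold change changed sign for 20 genes, running from -0.29 to 0.55 for Kmt2a, -0.035 to 0.54 for Kmt2b, -0.46 to 0.080 for Kmt2d, -0.28 to 0.61 for Setd1a, -1.48 to 0.32 for Setd1b, -0.15 to 0.52 for Setd7, -0.19 to 0.047 for Men1, -0.46 to 0.20 for Kdm5a, -0.57 to 0.00076 for Suv39h1, -0.064 to 0.16 for Ehmt1, -0.23 to 0.61 for Prdm2, -0.13 to 1.22 for Kdm3a, -0.39 to 0.19 for Kdm3b, -0.46 to 0.055 for Kdm4c, -0.36 to 0.16 for Kdm6b, -0.13 to 0.25 for Kdm7a, -0.12 to 0.10 for Kmt5a, -0.17 to 0.55 for Kmt5b, -1.42 to 0.0029 for Kmt2e and -0.12 to 0.42 for Kdm8.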

Other observations

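The windows of 250 bases upstream of the RefSeq starts (GRCm38.p6) were described for the 27 of 36 genes with an entry, which gave 41 windows since a gene can have several starts. They held a median of 19 CG pairs, against 6 over all 32851 windows. The SP1 box GGGCGG, read on both strands, occurred in 26 of the 41 windows and in 32.7% of all windows. The TATA motif TATAAA occurred in 0 of the 41 and in 12.4% of all windows. The E-box CACGTG occurred in 3 of the 41 and in 6.02% of all windows, the ETS core CCGGAAG in 4 and in 6.91%, the CCAAT motif in 16 and in 33.9%, and the NRF1 motif in 0 and in 0.782%. Windows of 1 gene can overlap, so these shares are a description and were not tested.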
